A study of Homo sapiens with 24 samples.

Results

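HSPA5, also called BiP or GRP78, is the Hsp70 chaperone of the endoplasmic reticulum (ER), and it was examined here with 9 genes that work beside it in protein folding and quality control. The 10 genes were listed by name, with the loss curves of these same libraries already known, and all 10 were found among the 12547 genes of the table. Their loss over time and the contrast between HSPA5 and its partners are therefore given as descriptions without p-values. Loss over time is the decline of a transcript after transcription is blocked.

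All samples were U2OS cells, a human osteosarcoma line, and the stated purpose was to learn how the RNA-binding protein QKI influences mRNA stability. The 4 genotypes compared were sgNS+EV, sgQKI+EV, sgQKI+QKI7-WT and sgQKI+QKI7-△KH: 1 carries the sgNS guide and the other 3 the sgQKI guide, with EV, the QKI7 isoform or a QKI7 form named for its missing KH domain, the RNA-binding domain. The labels do not spell out NS and EV, and they do not say whether a line is 1 clone. Every genotype was collected at 0, 4 and 8 h of treatment with 5 µg/mL actinomycin D, which blocks transcription, together with 200 µM sodium arsenite, an oxidative stressor. All groups at 4 and 8 h thus carry both agents, and no group received only 1 of them. Each of the 12 groups has 2 libraries of polyadenylated RNA. The labels do not say that these came from separate cultures, so the p-values below measure only the spread between these libraries, which may be technical.

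The values are a linear signal brought to a common scale with ERCC spike-in RNA, synthetic transcripts added in known amounts, and read counts per library are not given. The summed signal of all endogenous genes ranged from 690400 to 1368000 across libraries, against 11480 to 11940 for the spike-ins. Ribosomal RNA took 2.66% to 12.1% of the endogenous signal. The 2 libraries of a group correlated over genes at r = 0.989 to 0.998, and the lowest value belonged to sgQKI+QKI7-WT at 4 h. At 0 h QKI read 60.0 and 48.2 in sgNS+EV and 36.0 and 32.7 in sgQKI+EV, a log2 difference of -0.63 (SE 0.14, adjusted p = 0.0264, limma with Benjamini-Hochberg adjustment). Both add-back genotypes read between 46.3 and 60.4. Against sgQKI+EV the log2 difference was 0.61 in sgQKI+QKI7-WT, which did not pass (SE 0.14, limma adjusted p = 0.142). It was 0.50 in sgQKI+QKI7-△KH (SE 0.14, limma adjusted p = 0.0339). The QKI value of a library does not separate added QKI7 from endogenous QKI. Of 8 mesenchymal and osteoblast markers 4 were in the table (VIM, COL1A1, SPARC and RUNX2), with a summed signal of 3191 to 5649. COL1A2, ALPL, SP7 and BGLAP were not among its genes. Of 9 epithelial markers 4 were in the table (EPCAM, KRT8, KRT18 and CLDN4), with a summed signal of 712.9 to 1375. The table held 0 of 5 blood cell and 0 of 4 hepatocyte markers. CDH1, a defining epithelial gene, was not among its genes, although the labels call U2OS epithelial.

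The ER folds secreted and membrane proteins. When unfolded proteins build up, the unfolded protein response raises transcription of ER chaperones through the factors ATF6 and XBP1, which act on short promoter elements, and PERK meanwhile slows translation. HSPA5 both binds unfolded chains and holds the stress sensors inactive. Its helpers include HYOU1, an Hsp110-type nucleotide exchange factor, DNAJB9 (ERdj4), a J-domain co-chaperone, and SDF2L1, which joins J-domain proteins of the ER. HSP90B1 (GRP94) is the Hsp90 of the ER, PDIA4 and PDIA6 are protein disulfide isomerases, CALR and CANX are lectin chaperones that hold newly made glycoproteins, and HERPUD1 is a membrane protein of ER-associated degradation.

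ER stress response elements are known from the promoters of several ER chaperone genes, and the matches to them are printed because they are a feature of these genes outside the measurements. RefSeq promoter windows of GRCh38.p14, from 250 bases before to 50 after each annotated start, were found for all 10 genes and searched on both strands. The ER stress response element (ERSE) was searched as CCAAT, any 9 bases and CCACG, and its relative ERSE-II as ATTGG, any 1 base and CCACG. The 2 motifs share the letters CCACG, and ATTGG is the reverse complement of CCAAT. The matches follow 5′ to 3′ with 5 flanking bases, and capitals mark the letters that the motif fixes.
HSPA5 ERSE, chr9:125241386-125241414, minus strand: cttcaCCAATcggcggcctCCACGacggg
HSP90B1 ERSE, chr12:103930211-103930239, plus strand: cctgaCCAATcggaaggagCCACGcttcg
HSP90B1 ERSE, chr12:103930316-103930344, minus strand: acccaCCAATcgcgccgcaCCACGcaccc
PDIA6 ERSE, chr2:10812848-10812876, minus strand: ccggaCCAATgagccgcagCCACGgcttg
CALR ERSE, chr19:12938379-12938407, minus strand: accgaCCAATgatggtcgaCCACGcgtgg
CANX ERSE, chr5:179698773-179698801, plus strand: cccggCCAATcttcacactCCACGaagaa
HERPUD1 ERSE-II, chr16:56932020-56932040, plus strand: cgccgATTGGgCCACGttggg
SDF2L1 ERSE-II, chr22:21642109-21642129, minus strand: ttttgATTGGtCCACGcttcc
HYOU1 ERSE-II, chr11:119057375-119057395, plus strand: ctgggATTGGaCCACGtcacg
HYOU1 ERSE-II, chr11:119057269-119057289, plus strand: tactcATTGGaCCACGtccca

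ERSE was present in a window of 5 of the 10 genes, against 15 of the 9377 genes of the table with a window (0.16%), and ERSE-II in 3 of the 10, against 13 of 9377 (0.139%). The 15 and the 13 include the matching genes of the 10. Since these elements are known from promoters of ER chaperone genes, nothing is read from the difference in shares. Over all 35116 windows of the annotation the shares were 0.0769% and 0.0541%. HSP90B1 held 2 ERSE matches on opposite strands and HYOU1 held 2 ERSE-II matches. PDIA4 and DNAJB9 held neither motif, which says only that these letters are not in those windows. The short core CCACG, part of both motifs, was in all 10 genes but also in 57.9% of the table's genes with a window. The HSPA5 match lies 66 to 48 bases before the start, and the other matches printed begin 79 to 225 bases before the start of the window shown. Only exact letters were searched, so near matches in the windows of HSPA5 or other genes are not counted. CANX has 4 windows, and its 1 match also falls in windows of other annotated starts, in 1 of which it begins 9 bases before the start and crosses it.

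**Figure D1:**
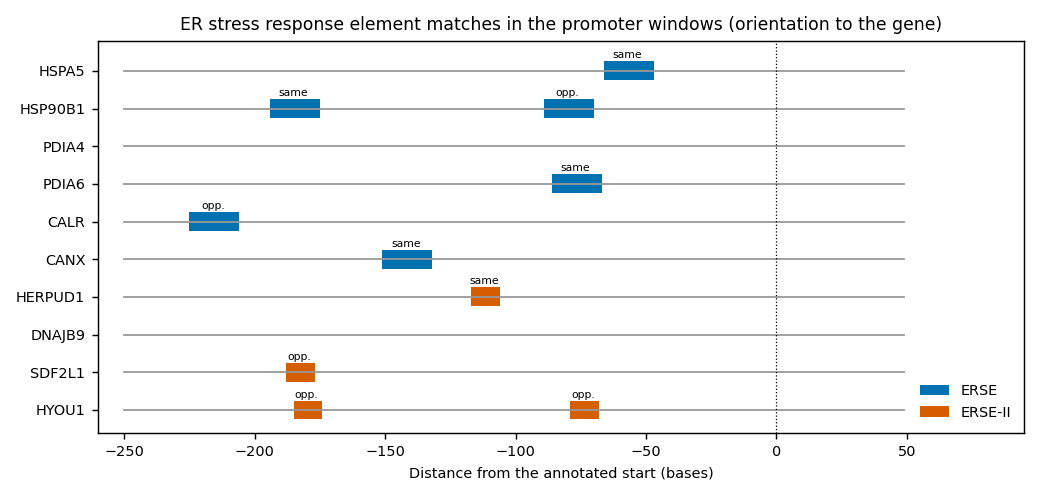
Matches to ERSE (blue) and ERSE-II (orange) in 1 promoter window for each of the 10 genes, with distance from the annotated start in bases on the x axis and the orientation to the gene written above each bar (same, or opp. for opposite). ERSE appears in 5 genes and ERSE-II in 3, all matches drawn lie before the start of the window shown, and the lines of PDIA4 and DNAJB9 carry none.

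HSPA5 mRNA was lost faster than most transcripts in every genotype, and it was lost most completely in the cells with the sgQKI guide. In sgNS+EV the 2 libraries read 332.3 and 358.8 at 0 h, 180.7 and 168.3 at 4 h, and 95.3 and 100.7 at 8 h. In sgQKI+EV they read 349.5 and 354.5, then 160.0 and 141.4, then 55.7 and 53.8. The starting levels of these 2 genotypes overlapped, whereas at 8 h each sgQKI+EV library was below both sgNS+EV libraries. With sgQKI+QKI7-WT the signal was 331.6 and 370.7 at 0 h, 200.9 and 201.9 at 4 h, and 74.5 and 71.4 at 8 h. With sgQKI+QKI7-△KH it was 442.9 and 417.0, then 185.5 and 192.3, then 71.7 and 74.8. At 8 h the libraries of the 2 add-back genotypes overlapped each other and lay between those of sgQKI+EV and sgNS+EV. As a share of the 0 h mean, 28.4% of HSPA5 remained in sgNS+EV after 8 h. The share was 15.6% with sgQKI+EV, 20.8% in sgQKI+QKI7-WT and 17.0% in sgQKI+QKI7-△KH. At 4 h the shares were 50.5%, 42.8%, 57.4% and 43.9% in the same order.

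Among the 8557 genes with a mean signal of at least 10, the median share remaining at 8 h was 62.6%, 55.2%, 58.8% and 58.9% in that order of genotypes. Only 3.88% of these genes had a lower share than HSPA5 in sgNS+EV, and 1.33% in sgQKI+EV. In sgQKI+QKI7-WT that figure was 2.17% and in sgQKI+QKI7-△KH 1.34%. In bulk RNA, fewer cells and less RNA per cell cannot be told apart.

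HERPUD1 was the other well-measured gene of the 10 that was lost early, and DNAJB9 was lost at a low signal. HERPUD1 read 55.4 and 58.9 in sgNS+EV at 0 h, 19.2 and 20.4 at 4 h, and 14.1 and 13.6 at 8 h. In sgQKI+EV it read 53.9 and 51.4, then 18.4 and 16.8, then 9.48 and 9.47. At 8 h the sgQKI+EV libraries were the lowest of the 4 genotypes, with 11.5 to 13.5 in the add-back libraries. The share of HERPUD1 left at 4 h was nearly the same in all genotypes, 32.6% to 34.6%, and 17.99% to 24.2% remained at 8 h. DNAJB9 read 12.8 and 9.98 in sgNS+EV at 0 h and 3.55 and 3.48 at 8 h, and the 8 h libraries of the other genotypes read 3.37 to 5.73. Its share at 4 h ran from 32.2% in sgQKI+QKI7-△KH to 60.1% in sgNS+EV, and at 8 h it ran from 30.8% in sgNS+EV to 41.7% in sgQKI+QKI7-△KH, so the order of these 2 genotypes was opposite at the later time.

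The disulfide isomerases, the lectin chaperones, HSP90B1 and HYOU1 kept most of their signal. HSP90B1 read 663.8 and 692.7 in sgNS+EV at 0 h and 503.9 and 522.8 at 8 h, and 709.0 and 689.9 in sgQKI+EV at 0 h and 487.1 and 483.0 at 8 h. Between genotypes, 69.4% to 75.7% of HSP90B1 remained at 8 h. The range was 75.7% to 84.5% for PDIA4, 73.9% to 79.5% for PDIA6, 65.2% to 71.4% for CALR, 67.6% to 76.5% for CANX and 65.7% to 76.3% for HYOU1. Each of these 6 ranges lies above the all-gene median of the same time in every genotype. The genotype with the lowest share at 8 h was sgQKI+EV for all 6.

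At 4 h these 6 genes stood above their 0 h mean in sgQKI+QKI7-WT, with 106% to 113% remaining, and in HSP90B1, PDIA6, CALR and CANX the first library was the higher. HSP90B1 read 860.8 and 721.8 in the 2 libraries, CANX 519.6 and 418.4, and CALR 1419 and 1198. These are the 2 libraries that correlate least with each other. The all-gene median share at 4 h was also highest in this genotype, 89.9% against 73.8% to 80.6% elsewhere.

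SDF2L1 did not decline in step with the others. It read 85.6 and 82.3 in sgNS+EV at 0 h, 56.0 and 59.6 at 4 h, and 75.0 and 84.9 at 8 h. In the other 3 genotypes the 4 h mean was 99.8% to 104% of the 0 h mean, against 68.9% in sgNS+EV, whose 4 h libraries lay below all other SDF2L1 values of the 24 libraries. Between 92.5% and 108% remained at 8 h. The sgQKI+QKI7-WT libraries spread widely for this gene, with 71.5 and 93.7 at 0 h and 67.0 and 97.9 at 4 h.

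**Figure D2:**
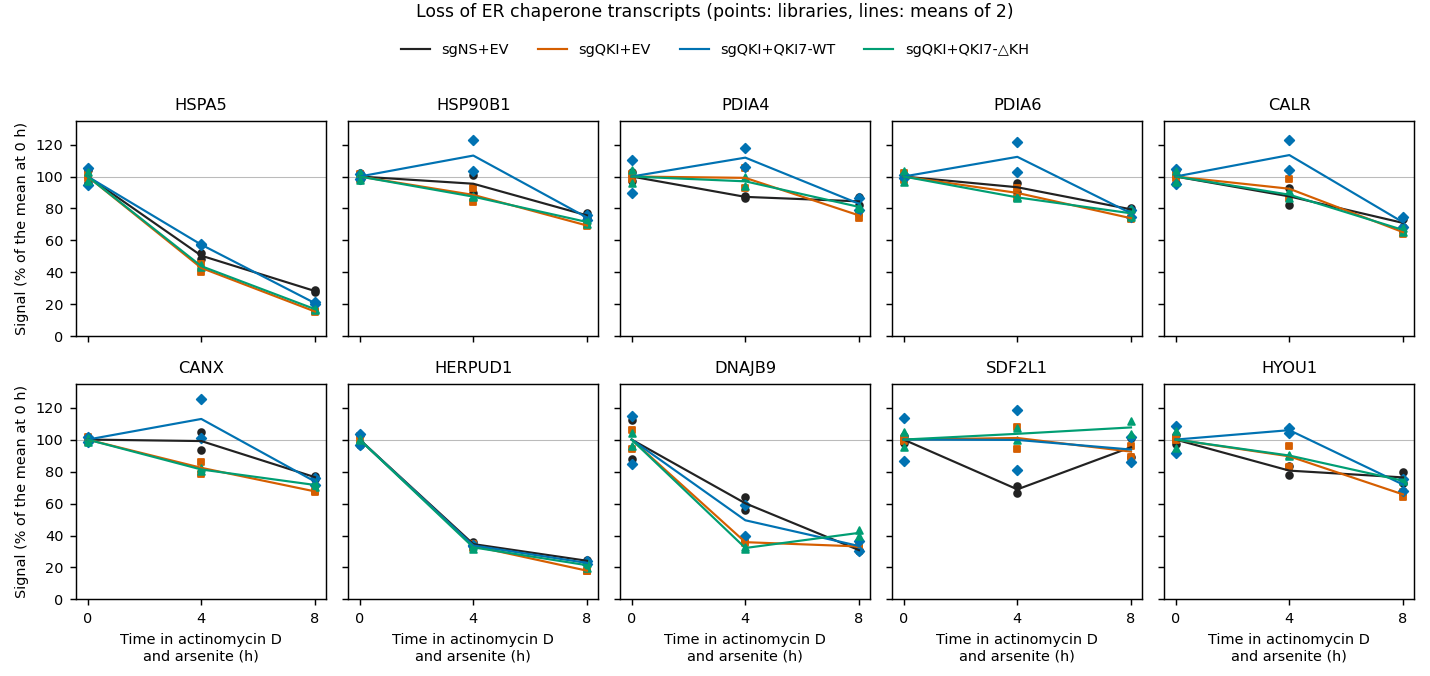
Signal of each gene as a percentage of its 0 h mean (y axis) against hours in actinomycin D and arsenite (x axis), with points for libraries and lines for means of 2, coloured by genotype. HSPA5, HERPUD1 and DNAJB9 drop below 45% by 8 h in all 4 genotypes. At 8 h 6 genes end between 65.2% and 84.5%, and SDF2L1 ends at 92.5% to 108%. These are spike-in scaled values, and the 6 intermediate genes end above their start in all 4 genotypes when libraries are scaled to their totals.

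From 0 to 8 h, on log2(signal + 1), 9 of 10 genes passed the limma threshold as lower in each genotype (Benjamini-Hochberg adjusted over all 12547 genes), the exception each time being SDF2L1. Over all genes the percentage called lower was 88.2% in sgNS+EV, 90.5% in sgQKI+EV, 90% in sgQKI+QKI7-WT and 90.6% in sgQKI+QKI7-△KH, and since loss was part of how the genes were chosen nothing is read from this count. The median change of the 10 genes in sgNS+EV was -0.39 against -0.70 for all genes. The direction for HSP90B1, PDIA4, PDIA6, CALR, CANX and HYOU1 rests on the spike-in scale: with each library scaled to its total, all 6 changes were above 0 in all 4 genotypes. HSPA5 stayed below 0 on every scale, at -1.81 in sgNS+EV with spike-ins and -1.29 with library totals, and at -2.66 and -2.05 in sgQKI+EV.

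Set against the mean log2 signal of its 9 partners, HSPA5 lost ground over the 8 h in every genotype. Relative to its value at 0 h this difference changed by -1.17 in sgNS+EV at 8 h, -1.89 in sgQKI+EV, -1.59 in sgQKI+QKI7-WT and -1.89 in sgQKI+QKI7-△KH. Because all 10 genes come from the same library, the measure does not depend on a factor common to the library. The level of this difference has no meaning across genes, since the signal is not known to be per length, but it can be compared between libraries. At 8 h the libraries stood at -0.21 and -0.19 in sgNS+EV, -0.83 and -0.84 in sgQKI+EV, -0.58 and -0.51 in sgQKI+QKI7-WT and -0.78 and -0.80 in sgQKI+QKI7-△KH. The 4 genotypes did not overlap at 8 h, with sgQKI+QKI7-△KH the nearest to sgQKI+EV. Leaving HERPUD1 and DNAJB9 out of the partners gave -1.48, -2.20, -1.89 and -2.17 in the order sgNS+EV, sgQKI+EV, sgQKI+QKI7-WT and sgQKI+QKI7-△KH. These are the partners lost fastest in the same curves, so leaving them out could only widen the difference, and nothing is read from that.

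**Figure D3:**
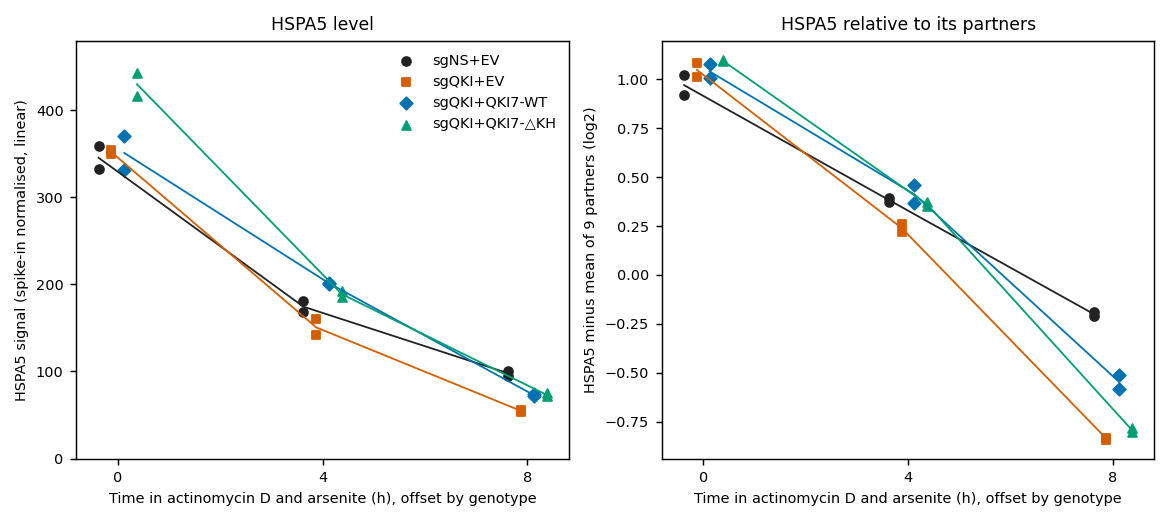
Left, HSPA5 signal in each of the 24 libraries (linear, spike-in normalised) against hours of treatment; right, HSPA5 minus the mean of its 9 partners (log2). Lines join means of 2 libraries and points are offset by genotype; at 8 h the sgNS+EV libraries (95.3 and 100.7) are the highest and the sgQKI+EV libraries (55.7 and 53.8) the lowest.

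The decay difference is the log2 change from 0 to 8 h in one genotype minus that in another. Between sgQKI+EV and sgNS+EV it was -0.85 (SE 0.10) for HSPA5, and 6 of 12547 genes had a more negative value. The all-gene median was -0.14, and the median of the 10 genes was also -0.14. HERPUD1 had the next lowest value of the 10, -0.38 (SE 0.11), and the remaining 8 genes lay between -0.21 for HYOU1 and 0.08 for DNAJB9. HSPA5 was the only gene of the 10 past the threshold in this comparison, beside 0.677% of all genes. It was chosen with these curves known, so the count is a description. The HSPA5 value ran from -0.91 to -0.80 when 1 of the 8 libraries was left out, and it was -0.62 after quantile normalisation and -0.76 with library totals. HERPUD1 passed as well when only the compared groups were fitted, which made 2 of 10. That fit called 1373 of the 12547 genes, against 85 in the main fit, and nothing is read from this count either.

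With QKI7-WT the loss of HSPA5 was smaller than in sgQKI+EV by 0.41 (SE 0.10), with QKI7-△KH by 0.13 (SE 0.10), and the 2 add-back genotypes differed by 0.29 (SE 0.10). HERPUD1 gave 0.31 (SE 0.11), 0.22 (SE 0.11) and 0.10 (SE 0.11) for the same 3 differences. None of the 10 genes, and none of the 12547, passed the adjusted limma threshold in any of these 3 comparisons (0% called). At an unadjusted p under 0.05 in limma, 2.74% of all genes passed for QKI7-WT against sgQKI+EV, 2.57% for QKI7-△KH against sgQKI+EV and 0.956% between the add-backs. Nothing is read from these comparisons for the 10 genes, whose loss curves were used in choosing them. The comparisons share libraries, and the 2 against sgQKI+EV were added after the data were seen.

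**Figure D4:**
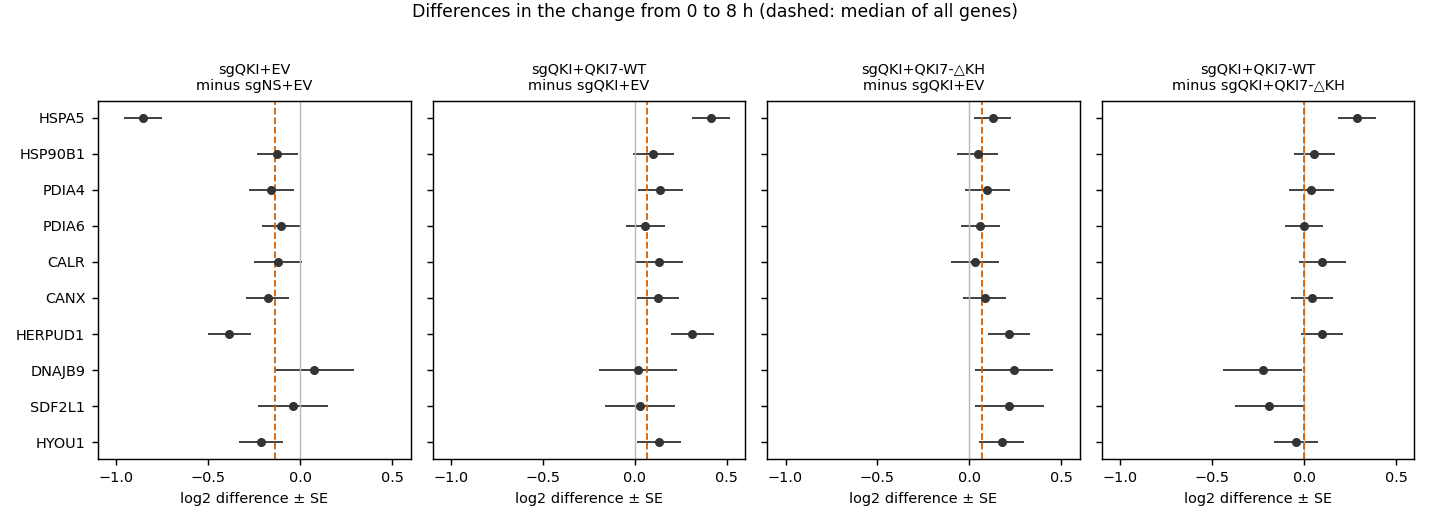
Difference in the log2 change from 0 to 8 h (x axis, ± SE from limma) for the 10 genes in 4 genotype comparisons on the spike-in scale, with a dashed line at the median of all genes. HSPA5 stands at -0.85 in sgQKI+EV minus sgNS+EV, far from the other 9 genes, and at 0.41, 0.13 and 0.29 in the other panels.

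Because QKI binds RNA at ACUAA-type sites, the letters ACTAAC and ACTAAT were searched in the 3′ UTR of 1 GENCODE 29 protein-coding transcript per gene. They were found in HSPA5 (1 site), HERPUD1 (2), DNAJB9 (2), CANX (1) and PDIA6 (1), so in 5 of 10 genes, against 34.7% of 11240 genes in the table with a 3′ UTR. The sites of the 3 fastest-lost genes are printed because these are the transcripts on which the loss curves turn, with the core in capitals and GRCh38 positions.
HSPA5, chr9:125235823-125235844, minus strand: aaattattACTAATgatgcttt
HERPUD1, chr16:56944429-56944450, plus strand: ctgtggtaACTAATcatttttt
HERPUD1, chr16:56944764-56944785, plus strand: agccagggACTAATctttaaag
DNAJB9, chr7:108573615-108573636, plus strand: ttgggctcACTAATatcaccag
DNAJB9, chr7:108573729-108573750, plus strand: aaacctttACTAATtcaaagtt

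All 3 fastest-lost genes carried ACTAAT, but so did PDIA6, of which 73.9% to 79.5% remained. CANX, of which 67.6% to 76.5% remained, carried ACTAAC. No ACTAAC or ACTAAT was in the 3′ UTR of HSP90B1, PDIA4, CALR, SDF2L1 or HYOU1, whose 3′ UTRs run from 123 bases in SDF2L1 to 1404 in HYOU1, against 1739 in HSPA5, 1573 in HERPUD1 and 1497 in DNAJB9. The pentamer ATTTA, the core of AU-rich elements that mark many unstable mRNAs, occurred at 5.34 per kb in DNAJB9, 3.18 in HERPUD1 and 2.30 in HSPA5, against a median of 1.61 over genes. HSP90B1, a slowly lost gene, had the highest density, 7.58 per kb, from 2 matches in a 3′ UTR of 264 bases. CANX, also slowly lost, had 5 matches at 2.19 per kb, against 4 matches in HSPA5. The density was 1.42 in HYOU1, 1.37 in PDIA4 and 1.15 in PDIA6, and CALR and SDF2L1 had no match. A match is a description of the letters and not a binding site.

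Before the chase, no difference between sgQKI+EV and sgNS+EV was called for the 10 genes. None passed the threshold at 0 h (limma, Benjamini-Hochberg), beside 1.55% of all genes, and 0 of 10 had an unadjusted p under 0.05 against 14.1% of all genes. The log2 differences ran from -0.16 for HYOU1 (SE 0.09) to 0.06 for CALR (SE 0.09), with 0.03 for HSPA5 and a 95% interval of -0.12 to 0.18. HYOU1 read 97.3 and 102.6 in sgNS+EV and 89.3 and 88.9 in sgQKI+EV, groups that do not overlap. With library totals the median of all genes moved by 0.17, and HSPA5, HSP90B1 and CALR were then called higher, at 0.20, 0.22 and 0.24.

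The add-back cells with QKI7-△KH started with more of the chaperone mRNAs on the spike-in scale. Against sgQKI+EV at 0 h, 6 of 10 genes were called higher (12.6% of all genes were), and none lower. HSPA5 read 442.9 and 417.0 against 349.5 and 354.5, a log2 difference of 0.29 (SE 0.07, limma adjusted p = 0.0222). HSP90B1 read 857.7 and 817.0 against 709.0 and 689.9, a difference of 0.26 (adjusted p = 0.0397). CALR read 1502 and 1407 against 1203 and 1186 and differed by 0.28 (adjusted p = 0.0475). PDIA4, CANX and HYOU1 also rose, by 0.27, 0.26 and 0.28 (adjusted p of 0.0467, 0.0426 and 0.0409), whereas PDIA6 at 0.22 missed the threshold (adjusted p = 0.0556). HERPUD1, DNAJB9 and SDF2L1 did not pass, with differences of 0.14, 0.21 and 0.23. In each of the 6 genes both QKI7-△KH libraries were above both sgQKI+EV libraries.

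The whole transcriptome stood higher in those cells too, since the median of all genes in this comparison was 0.19 and that of the 10 genes 0.26. With libraries scaled to their totals the all-gene median became -0.05, that of the 10 genes 0.01, and none of the 10 was called. Leaving out either sgQKI+EV library or the first QKI7-△KH library also left 0 calls, and leaving out the other QKI7-△KH library left 2. The summed endogenous signal at 0 h was 1035756 and 1121996 in sgQKI+EV and 1206039 and 1367862 in QKI7-△KH, and its part in the result was not tested.

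For QKI7-WT against sgQKI+EV at 0 h no difference was called. Of the 10 genes 0 passed in limma, beside 0.0877% of all genes, and 0 of 10 had an unadjusted p under 0.05 against 4.75% of all genes. The HSPA5 difference was -0.01 with a 95% interval of -0.16 to 0.14. Against QKI7-△KH, 3 genes were called lower in QKI7-WT, beside 3.71% of all genes called lower: HSPA5 at -0.29 (SE 0.07, adjusted p = 0.032), PDIA4 at -0.35 (SE 0.09, adjusted p = 0.0329) and CALR at -0.33 (SE 0.09, adjusted p = 0.0467), by limma with Benjamini-Hochberg adjustment. PDIA4 read 111.1 and 136.0 with QKI7-WT and 163.4 and 150.4 with QKI7-△KH, and CALR read 1097 and 1211 against 1502 and 1407. The remaining 7 genes lay between -0.26 and -0.12. The all-gene median was -0.15 and that of the 10 genes -0.25. No gene of the 10 was called with library totals, or without the first QKI7-WT library or either QKI7-△KH library. Without the other QKI7-WT library 2 were called. This comparison shares its QKI7-△KH libraries with the one against sgQKI+EV, so the 2 sets of calls are not separate evidence.

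**Figure D5:**
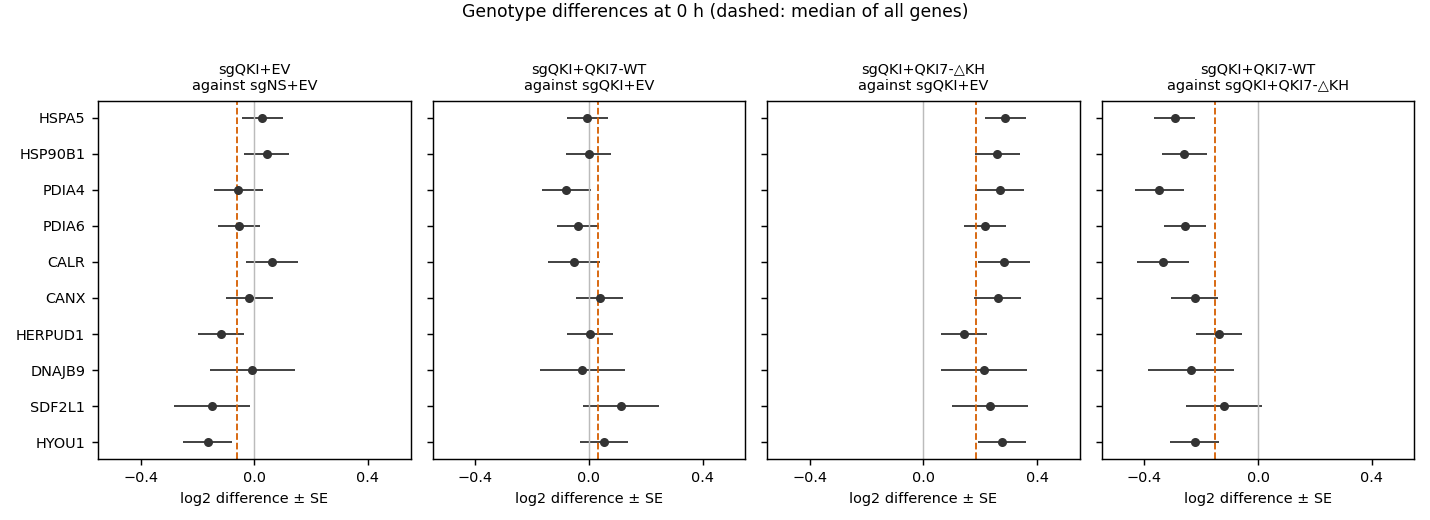
Genotype differences at 0 h (log2, x axis, ± SE from limma) for the 10 genes on the spike-in scale, with a dashed line at the median of all genes. The 2 comparisons with QKI7-△KH shift all 10 genes and the all-gene median (0.19 and -0.15) together, while the other 2 stay near 0; with library totals the median of the 10 genes in sgQKI+QKI7-△KH against sgQKI+EV is 0.01.

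Other genes of the ER pathways were counted from 4 lists chosen for their function, with DNAJC3 in 2 of them. In sgNS+EV from 0 to 8 h, 31 of 40 measured folding factors passed as lower on the spike-in scale and none as higher, with a median of -0.44 against -0.70 for all genes. With library totals 15 of these 40 passed as higher and 9 as lower. TXNDC11, a thioredoxin-domain protein, changed by -2.53 (SE 0.11), TMX4 by -1.44 (SE 0.10) and FKBP14, a prolyl isomerase, by -1.17 (SE 0.12). All 3 remained below 0 and past the threshold with library totals. Of 35 translocation and N-glycosylation genes 29 passed as lower, with a median of -0.47 that became 0.03 with library totals, where 11 passed as higher and 8 as lower. TRAM2 changed by -1.60 (SE 0.08), SPCS3, a signal peptidase subunit, by -1.30 (SE 0.14) and SSR1, a translocon-associated protein, by -1.07 (SE 0.10).

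Degradation and stress-signalling genes had median changes close to that of all genes. Of 25 genes of ER-associated degradation 24 passed as lower (median -0.73), with the ubiquitin ligases RNF139 at -3.06 (SE 0.09) and SYVN1 at -1.79 (SE 0.11) and the mannosidase-like EDEM3 at -1.91 (SE 0.15). All 24 sensors and factors of the unfolded protein response passed as lower (median -0.74), among them EIF2AK3, which encodes PERK, at -2.10 (SE 0.12), and the phosphatase regulators PPP1R15B at -2.25 (SE 0.09) and PPP1R15A at -2.20 (SE 0.11). With library totals 14 of the 25 and 15 of the 24 still passed as lower, and 3 and 4 passed as higher. The difference between lists was not tested, and 88.2% of all genes passed as lower on the spike-in scale.

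None of the measured genes in the 4 lists passed for the decay difference of sgQKI+EV minus sgNS+EV, beside 0.677% of all genes. The list medians in this comparison lay between -0.19 and -0.12. At an unadjusted p under 0.05 in limma there were 7 of 40 folding, 8 of 25 degradation, 7 of 24 unfolded protein response and 9 of 35 translocation genes, against 17% of all genes. At 0 h, 2 folding genes, FKBP7 at -0.68 (SE 0.16) and FKBP14 at -0.45 (SE 0.12), were lower in sgQKI+EV than in sgNS+EV, and FKBP14 did not pass with library totals. In QKI7-△KH against sgQKI+EV, 10 of 40 folding, 3 of 25 degradation, 3 of 24 unfolded protein response and 7 of 35 translocation genes passed as higher, beside 12.6% of all genes, led by PDIA5 (0.31), UFD1L (0.30), NFYC (0.26) and SEC11C (0.38). With library totals none in the 4 lists passed (4, 2, 2 and 1 at an unadjusted p under 0.05 in limma) and all 4 medians were below 0.

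Over the 12 group means, the genes whose log2 pattern was most like that of HSPA5 were TTI1 (Pearson r = 0.998), HEATR6 (0.998), PCNA (0.998), RNF26 (0.997) and TUBGCP3 (0.997), out of 8556 genes with a mean of at least 10. The correlation takes no account of the size of a change: TTI1 changed by -0.62 in sgNS+EV and -0.95 in sgQKI+EV, and PCNA, the DNA polymerase clamp, by -0.96 and -1.49. Of the partners, HERPUD1 ranked 3920th with r = 0.948, HYOU1 6302nd with 0.872, PDIA4 7567th with 0.726 and SDF2L1 8400th with 0.150. DNAJB9 had a mean below 10 and was not ranked. Among the partners, HSP90B1 and CALR were the closest pair (r = 0.983). All these points share the same 12 groups and the common loss over time.

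Gene models of GENCODE 29 place HSPA5 at chr9:125234853-125241330 on the minus strand with no overlapping gene, and PDIA4 and SDF2L1 likewise have none. The other 7 overlap at least 1 annotated gene, such as ATP6V1C2 at PDIA6 and THAP5 and PNPLA8 at DNAJB9, both on the opposite strand. Whether counting used the strand is not given in the sources used here, so it is not known whether reads of such pairs were separated. HSP90B1 also has related pseudogenes, and whether their reads enter its signal is not known. Pseudogene sequences were not examined here, for HSP90B1 or for the other genes.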

How the data were processed

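PolyA RNA of 24 U2OS libraries (12 groups of 2) was sequenced after stranded library preparation, per the labels' protocols. STAR, RSEM and the build GRCh38 are named in the submitters' processing notes, without versions. The deposited signal is linear and its 38 ERCC rows sum to nearly the same value in every library, from which a spike-in scale was inferred. Its unit before that step is not given in the sources used here. Read depth per library is unknown, so no counting error can be given.

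Values were taken as log2(signal + 1) for the 12547 endogenous genes with a signal of at least 1 in at least 2 libraries. This scale understates changes of low genes such as DNAJB9. Group means of all 12 groups were fitted in limma 3.58.1 (R 4.3.3) with an intensity trend. P-values were Benjamini-Hochberg adjusted over all genes with a threshold of 0.05, and the fit was tested on simulated data. Alternatives were 3 other scalings, a pseudocount of 0.1, other filters, a replicate block, separate fits and leaving out each library. Library totals without ribosomal RNA and leaving out the sgQKI+QKI7-WT 4 h libraries were chosen after seeing the data. Genes named from the lists are at most 3 per direction, the ones with the largest change past the threshold. The 10 genes and all lists were chosen with earlier results of these data known. One further marker of the mesenchymal and osteoblast list is not reported here, and its signal is left out of the sum.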

Additional observations from a re-analysis of the deposited data

Results flagged for a closer look

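HSPA5 is given here because it alone of the listed genes passed the adjusted limma threshold in a decay difference. From 0 to 8 h its log2 signal changed by -2.66 with sgQKI+EV, against -1.81 in the sgNS+EV genotype, a decay difference of -0.85 (SE 0.10). The gene was chosen with its loss curves known, so passing that threshold is not evidence, and the values only describe these libraries. The all-gene median of the same difference was -0.14, and the value for HSPA5 less that median was -0.72 on the spike-in scale and -0.70 with library totals.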

How the results depend on the processing

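Across 165 summary values and 1708 values of single genes under other settings, 141 and 1472 were classed as unchanged. For single genes this meant the same direction and side of the threshold, or a move smaller than the spread of libraries. For counts of genes it meant a count equal to the main count or within a set ratio of it. The unchanged counts include counts of 0 in decay differences where no gene of all was called. The 0 h calls depended on scale. In sgQKI+EV against sgNS+EV, 0 of 10 genes were called, but 3 with library totals and 1 each with quantile normalisation, library totals without ribosomal RNA and the compared groups alone (195 genes of all were called, then 1032, 771, 389 and 1328). In QKI7-WT against QKI7-△KH, 3 calls became 0 with library totals and 0 without ribosomal RNA, 1 with quantile normalisation, 1 with the compared groups alone, 5 with a mean of at least 10 and 6 without the sgQKI+QKI7-WT 4 h libraries (471 genes of all, then 55, 88, 143, 265, 678 and 1484). In QKI7-△KH against sgQKI+EV, 6 calls became 0 with library totals, 0 with quantile normalisation and 0 without ribosomal RNA (1590 genes of all, then 47, 87 and 43). Leaving out 1 library gave 0 to 2 calls in each of these last 2 comparisons. For the decay difference of sgQKI+EV minus sgNS+EV the compared groups alone called 2 of 10 instead of 1 (1373 genes of all against 85). The 10 genes were chosen with their loss curves known, so these 2 counts are descriptions and nothing is read from them. The cause of these differences was not tested.

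Of 40 changes from 0 to 8 h, 39 lay below 0. There were 12 below 0 with library totals, 16 without ribosomal RNA and 21 with quantile normalisation, and 38 to 39 when 1 library was left out. The scalings raised the all-gene median of the change in sgNS+EV by 0.47, 0.41 and 0.75, in that order. With library totals the changes of HSP90B1, PDIA4, PDIA6, CALR, CANX and HYOU1, in that order, were 0.12, 0.27, 0.19, 0.024, 0.13 and 0.13 in sgNS+EV. They were 0.091, 0.21, 0.18, 0.0015, 0.053 and 0.012 in sgQKI+EV, then 0.12, 0.28, 0.17, 0.060, 0.11 and 0.072 in sgQKI+QKI7-WT, and 0.11, 0.29, 0.22, 0.0089, 0.11 and 0.17 in sgQKI+QKI7-△KH. Without ribosomal RNA in the totals, HSP90B1, PDIA4, PDIA6 and CANX were at 0.049, 0.21, 0.12 and 0.064 in sgNS+EV, at 0.054, 0.18, 0.15 and 0.016 in sgQKI+EV, at 0.059, 0.22, 0.11 and 0.047 in sgQKI+QKI7-WT, and at 0.068, 0.25, 0.17 and 0.069 in sgQKI+QKI7-△KH. HYOU1 was then at 0.060 in sgNS+EV, 0.013 in sgQKI+QKI7-WT and 0.12 in sgQKI+QKI7-△KH, and CALR at 0.00036 in sgQKI+QKI7-WT. After quantile normalisation PDIA4, CANX and HYOU1 were at 0.27, 0.061 and 0.18 in sgNS+EV, at 0.28, 0.033 and 0.18 in sgQKI+EV, at 0.30, 0.033 and 0.17 in sgQKI+QKI7-WT, and at 0.30, 0.045 and 0.23 in sgQKI+QKI7-△KH, and PDIA6 was at 0.017, 0.070 and 0.076 in sgNS+EV, sgQKI+EV and sgQKI+QKI7-△KH. HSPA5 relative to its 9 partners, averaged over genotypes, changed by -1.63, with -1.65 to -1.62 when 1 library was left out.

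Replicate numbers were not treated as pairs in the main fits. Over 66 pairs of groups, the difference between replicates 1 and 2 correlated at -0.42 to 0.48 (median -0.02), and 21 pairs were over 0.1. At 0 h replicate 1 had more ribosomal RNA than replicate 2 in every genotype, for example 12.05% against 8.083% in sgNS+EV. Whether some groups share a replicate effect was not tested. With a replicate block PDIA6 was called as well in both comparisons with QKI7-△KH, giving 4 and 7 genes of 10. With 2 libraries a group and no read counts, differences near the size of the 0 h calls rest on single libraries.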
